A study of Mus musculus with 7 samples.

Results

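The genes described here encode the subunits of oxidative phosphorylation that are made from nuclear DNA. They were chosen by gene name, as names starting with Nduf followed by a, b, c, s or v (without the Ndufaf assembly factors), Uqcr, Cox4 to Cox8 or Atp5, together with Sdha, Sdhb, Sdhc and Sdhd. This gave 85 of the 24062 genes in the count table, with 38 in complex I, 4 in complex II, 8 in complex III, 18 in complex IV and 17 in ATP synthase. The rule used names and no measured value, but earlier results of these data were known when the genes were chosen. Names and function differ for a few of them. Ndufa4 is now placed with complex IV, Cox7a2l is an assembly factor of respiratory supercomplexes, and Atp5s and Atp5sl (Dmac2l and Dmac2 in RefSeq) are not counted among the subunits of ATP synthase. Cyc1, Usmg5 and 2010107E04Rik, which do encode subunits, fall outside the name rule and are given apart.

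RNA was sequenced from whole spleens of mice aged 2 to 3 months. The mutant group was 3 enlarged spleens of genotype Vav1-iCre;Brca1F22-24/F22-24, in which Cre recombinase driven from Vav1 acts in blood cells on a Brca1 allele named for exons 22 to 24. The wild-type group was 4 spleens of C57BL6 mice with the genotype Brca1+/+. Only the mutant mice carried Cre and only their spleens were enlarged, and a strain was named only for wild type, so the effects of these cannot be told apart. The labels name separate spleens and say no more about matching, and the p-values therefore reflect only how much these spleens vary.

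Oxidative phosphorylation takes place in the inner mitochondrial membrane. Complexes I and II pass electrons from NADH and succinate to coenzyme Q, complex III passes them to cytochrome c, and complex IV passes them to oxygen. Complexes I, III and IV pump protons, and ATP synthase uses the returning protons to make ATP. Most subunits are encoded in the nucleus and a few in mitochondrial DNA, so assembly draws on both genomes. The factors NRF1, GABP and YY1 are known to bind many promoters of these nuclear genes.

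Promoter sequence is shown for 6 members that span the range of the results, from a large increase to a decrease. RefSeq promoter windows (GRCm38.p6, 250 bases before to 50 bases after the start) were found for 70 of the 85 members. Each stretch below ends at the base before the annotated start and is written 5′ to 3′ on the gene's strand. The stretch of Cox6a1 is 170 bases long and the others are 120 bases long. Capitals mark matches on either strand to the NRF1 letters (GCGCA, any base, GCGC) or, as CTTCCGG, to the reverse complement of the GABP letters CCGGAAG. Positions are chr13:74350241-74350360 (minus) for Sdha, chr16:37654369-37654488 (minus) for Ndufb4, chr15:102671048-102671167 (minus) for Atp5g2, chr5:115348959-115349128 (minus) for Cox6a1, chr17:83514334-83514453 (minus) for Cox7a2l and chr7:25619294-25619413 (plus) for Atp5sl.
Sdha: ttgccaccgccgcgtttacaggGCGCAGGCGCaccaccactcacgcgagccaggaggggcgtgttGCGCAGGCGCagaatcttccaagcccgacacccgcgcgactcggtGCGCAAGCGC
Ndufb4: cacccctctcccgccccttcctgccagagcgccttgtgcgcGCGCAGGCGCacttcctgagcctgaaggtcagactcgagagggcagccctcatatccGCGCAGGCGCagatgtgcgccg
Atp5g2: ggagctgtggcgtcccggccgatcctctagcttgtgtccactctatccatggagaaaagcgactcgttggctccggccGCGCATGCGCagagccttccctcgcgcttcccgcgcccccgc
Cox6a1: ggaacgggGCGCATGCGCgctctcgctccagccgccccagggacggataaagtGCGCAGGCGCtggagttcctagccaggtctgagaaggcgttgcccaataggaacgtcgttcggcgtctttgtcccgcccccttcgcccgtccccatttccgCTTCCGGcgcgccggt
Cox7a2l: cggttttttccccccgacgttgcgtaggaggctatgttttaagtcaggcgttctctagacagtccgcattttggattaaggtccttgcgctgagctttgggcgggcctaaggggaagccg
Atp5sl: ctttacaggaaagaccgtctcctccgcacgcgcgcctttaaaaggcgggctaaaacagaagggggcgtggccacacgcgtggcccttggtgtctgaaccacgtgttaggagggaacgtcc

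The Sdha stretch held 3 NRF1 matches, Ndufb4 held 2, Atp5g2 held 1 and Cox6a1 held 2 with 1 GABP match. The stretches of Cox7a2l and Atp5sl held none. The full window of Atp5sl held a match to the YY1 letters AANATGGCG from base 27 after the start. In a second RefSeq window of Atp5sl the same site lay before the start. Over the full windows on both strands, the NRF1 letters were in 23.7% of the 76 member windows, against 8.65% of windows of tested genes and 4.60% of all 32851 windows. The GABP letters were in 21.1% of member windows, 15.4% of windows of tested genes and 8.86% of all windows. For the YY1 letters these shares were 15.8%, 4.35% and 2.38%. Of the 70 members, 38 held at least 1 of the 3 motifs and 32 held none. A match describes letters only and is not a measured binding site.

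The 7 libraries held 26889712 to 63612532 counts, and no pair agreed within sampling noise. Brca1, the targeted gene, stood at 67.6, 47.1 and 42.7 CPM (read counts scaled to library size) in mutant spleens and at 46.2, 72.8, 15.7 and 20.2 CPM in wild type. The groups overlapped (log2 fold change 0.44, SE 0.51, adjusted p = 0.49, edgeR quasi-likelihood test), and counts over the whole gene cannot show the loss of some exons. Marker genes of several cell types separated the groups. The 5 B cell markers, which define the main lymphocyte of a normal spleen, summed to 21.8 to 171 CPM in mutant spleens and 2985 to 3902 CPM in wild type. The 5 immature T cell markers summed to 884 to 1848 CPM in mutant spleens and 62.2 to 92.3 CPM in wild type. The 7 cell division genes summed to 4311 to 4818 CPM in mutant spleens and to 1903, 3112, 597 and 788 CPM in wild type. Wild-type 1 and 2 thus lay above wild-type 3 and 4 in these genes, as they did in Brca1 and in the erythroid markers given below. The 6 plasmacytoid dendritic cell markers were Siglech, Bst2, Ly6d, Tcf4, Runx2 and Clec10a. They summed to 311 to 468 CPM in the mutant against 509 to 812 CPM. Of these 6, 4 were called lower, where 28.9% of all tested genes were. Wild-type 2 stood apart with 6331 CPM of pancreas markers, and leaving it out changed no call of a member. The markers of B cells, immature T cells, plasmacytoid dendritic cells and cell division moved with the group. Their part in the results below was not tested. Mature T cell markers overlapped, with sums of 474 to 751 CPM in the mutant and 552 to 721 CPM in wild type. Red pulp macrophage markers overlapped too, at 286 to 1673 CPM and 1594 to 2026 CPM, and so did erythroid markers. In whole tissue, more cells of a type and more RNA per cell cannot be told apart.

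In each of the 5 complexes, most oxidative phosphorylation genes had more transcript in the mutant spleens. Of the 85 genes, 82 passed the filter on low counts, and 75 of these were called higher and 1 was called lower in the mutant (edgeR quasi-likelihood test, Benjamini-Hochberg adjusted p under 0.05 over all 15188 tested genes). Among all tested genes, 28.5% were called higher and 28.9% lower. The median log2 fold change was 1.28 for the 82 genes and -0.02 for all tested genes. An increase of at least 2-fold was called for 63 of the 82 genes, against 17.2% of all tested genes. All 3 mutant spleens lay above all 4 wild-type spleens for 74 genes and below them for 1, where 29.2% and 32.6% of all tested genes did so. Without Cox7a2l, Atp5s and Atp5sl, 75 of 79 genes were called higher and 0 lower, the other 4 being Ndufa3, Ndufa4l2, Cox4i2 and Cox6a2. Of the 78 members with a mean of at least 5 CPM, 74 were called higher and 1 lower.

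**Figure D1:**
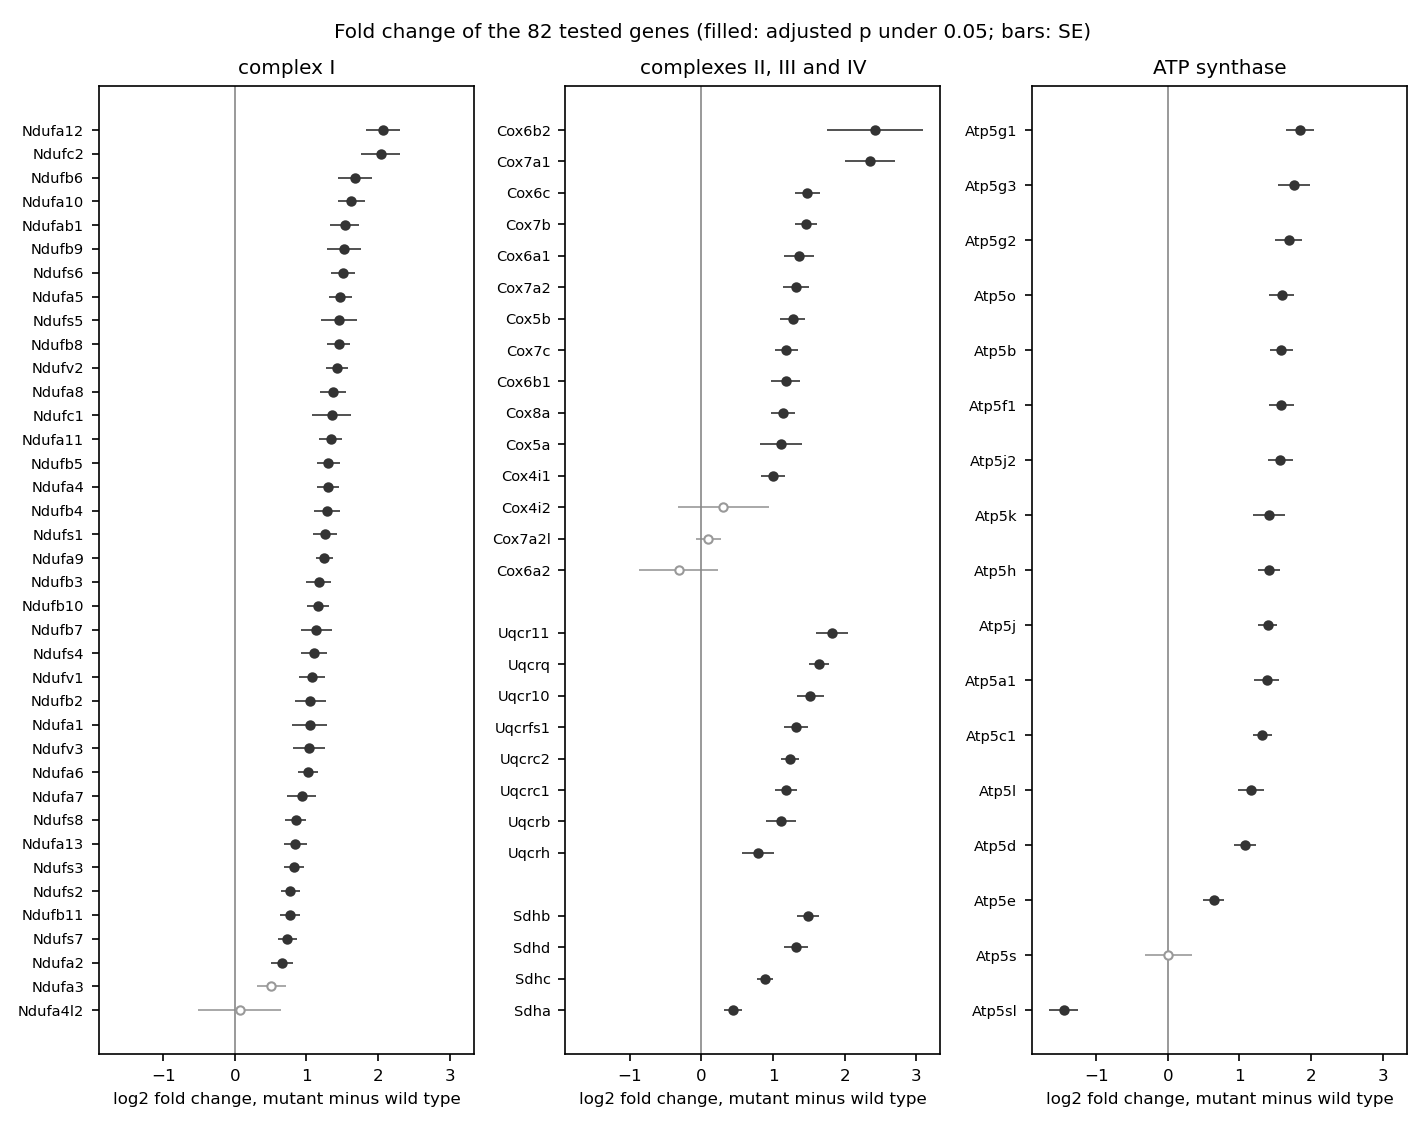
Log2 fold change (mutant minus wild type, horizontal axis) of each of the 82 tested genes, grouped by complex, with bars of 1 SE and filled points for an adjusted p under 0.05. Of the 82 points, 75 are filled to the right of 0 and 1, Atp5sl at -1.45, is filled to the left.

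Together the 85 genes took 1.13%, 1.28% and 1.36% of all counts in the mutant libraries and 0.653%, 0.601%, 0.628% and 0.631% in wild type. Their summed level was 11994, 13884 and 15755 CPM in mutant spleens and 6211, 6199, 5736 and 5298 CPM in wild type. The groups did not overlap, and the ratio of the means was 2.37. The mutant spleens also differed among themselves, since mutant 1 was the lowest of its group for 65 of the 82 genes and mutant 3 the highest for 57. Mutant 1 also held the most erythroid marker RNA of the mutants, a sum of 6388 CPM against 946 and 1399 CPM, and the part of this in its lower values was not tested. Erythroid markers did not separate the groups, with 3093 and 7358 CPM in wild-type 1 and 2 and 479 and 481 CPM in wild-type 3 and 4.

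**Figure D2:**
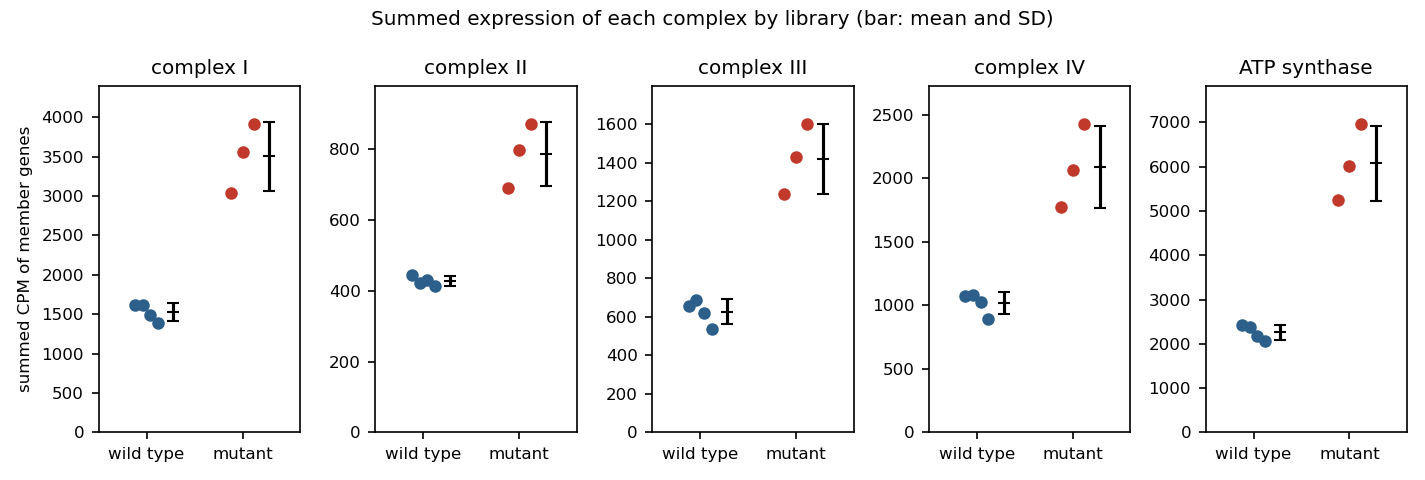
Summed CPM of the member genes of each complex (vertical axes from 0, 1 panel per complex), with 1 point per library and the mean and SD beside each group. In all 5 panels the 3 mutant points lie above the 4 wild-type points.

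In complex I, the NADH dehydrogenase, 36 of 38 genes rose, 0 fell and the median log2 fold change was 1.21. The summed level was 3505 ± 435 CPM in mutant spleens and 1527 ± 114 CPM in wild type (SD, n = 3 and 4). The largest increases were those of accessory subunits. Ndufa12 (chromosome 10, 94199009 to 94220948, plus strand, mm10) stood at 108, 191 and 172 CPM in mutant spleens and 40.9, 43.3, 38.7 and 27.9 CPM in wild type. Every mutant value was above every wild-type value, a rise of 2.06 on the log2 scale (SE 0.24, adjusted p = 0.000446, edgeR). Ndufc2, a membrane arm subunit (chromosome 7, 97400003 to 97407800, plus strand), stood at 68.9, 117 and 117 CPM against 22.2, 20.2, 20.4 and 35.6 CPM, a rise of 2.04 on the log2 scale (SE 0.28, adjusted p = 0.000796, edgeR). Ndufb6, also of the membrane arm, rose by 1.68 on the log2 scale (SE 0.24).

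The 7 nuclear core subunits of complex I, which carry the flavin, the iron-sulfur clusters and the quinone site, all rose, by 0.73 to 1.43 on the log2 scale with a median of 0.85. The 31 other genes of this complex had a median of 1.29, and 29 of them rose. Whether the core and accessory genes differ was not tested. Among core genes Ndufv2 stood at 155 ± 27.3 CPM against 57.7 ± 4.67 CPM, and Ndufs7 at 46.5 ± 5.30 CPM against 27.9 ± 1.12 CPM. The smallest called increase was that of Ndufa2, at 55.1, 53.4 and 39.7 CPM against 31.6, 33.5, 29.8 and 30.1 CPM (0.66, SE 0.15, adjusted p = 0.00781, edgeR). Settings that lost that call included library size as the scaling and leaving out wild-type 1 and 2. Ndufa3 overlapped between the groups, at 46.5, 74.7 and 76.1 CPM against 49.5, 46.6, 48.8 and 39.6 CPM, and missed the threshold (0.51, SE 0.20, adjusted p = 0.0553, edgeR). Ndufa3 was called higher with all libraries in DESeq2 and when globin genes were left out of the fit. Without mutant 1 it was also called higher, with a log2 fold change of 0.79.

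Complex II, succinate dehydrogenase, is the complex whose 4 subunits are all nuclear, and it also belongs to the citric acid cycle. All 4 genes rose, but by unequal amounts. Sdha, the flavoprotein that oxidizes succinate (chromosome 13, 74322255 to 74350240, minus strand), stood at 313, 304 and 342 CPM in mutant spleens and 243, 237, 243 and 213 CPM in wild type. The groups did not overlap, and the increase was the smallest among the 75 called higher (0.45, SE 0.13, adjusted p = 0.0175, edgeR). Settings that lost this call included library size as the scaling, edgeR's exact test, an adjusted p under 0.01 and leaving out wild-type 1 and 2, with log2 fold changes from 0.20 to 0.55 and adjusted p from 0.00036 to 0.212 over the alternatives. Sdhb, the iron-sulfur subunit (chromosome 4, 140961271 to 140979192, plus strand), stood at 134, 188 and 192 CPM against 62.0, 59.8, 60.7 and 62.2 CPM, a rise of 1.48 on the log2 scale (SE 0.15, adjusted p = 0.000334, edgeR).

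The ratio of Sdha counts to Sdhb counts, which needs no scaling between libraries, was 2.34, 1.61 and 1.78 in mutant spleens and 3.92, 3.96, 4.01 and 3.43 in wild type. The ranges did not overlap, so the 2 transcripts changed unequally. The membrane anchors Sdhc and Sdhd rose by 0.89 (SE 0.12) and 1.32 (SE 0.17) on the log2 scale. Per kilobase of transcript, Sdha was at 80.7 ± 4.92 CPM and Sdhb at 53.6 ± 1.02 CPM in wild type. In the mutant the order was the opposite, with Sdha at 110 ± 6.78 and Sdhb at 150 ± 28.5 CPM per kilobase.

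In complex III, the cytochrome bc1 complex, all 8 genes rose, with a median log2 fold change of 1.28. Uqcr11, a small accessory subunit (chromosome 10, 80402997 to 80406821, minus strand), stood at 98.2, 91.0 and 135 CPM against 33.2, 38.5, 27.7 and 22.7 CPM (1.83, SE 0.22, adjusted p = 0.00054, edgeR). Uqcrq and Uqcr10, further small subunits, rose by 1.64 and 1.52 on the log2 scale. The Rieske iron-sulfur protein gene Uqcrfs1 stood at 122 ± 25.4 CPM against 48.9 ± 4.39 CPM, and the core protein gene Uqcrc2 at 300.2 ± 32.8 CPM against 127 ± 3.14 CPM. Uqcrh, the hinge protein gene, had the smallest increase of this complex, at 302, 344 and 338 CPM against 208, 232, 198 and 120 CPM (0.79, SE 0.22, adjusted p = 0.0181, edgeR). Its call was lost without mutant 2, without mutant 3 and at an adjusted p under 0.01.

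In complex IV, cytochrome c oxidase, 12 of the 15 tested genes rose and 0 fell, with a median of 1.19. Several of its subunits exist as a widely expressed form and a form typical of muscle, lung or testis. The widely expressed forms all rose. Cox4i1, the largest nuclear subunit, stood at 278, 349 and 386 CPM against 183, 182, 167 and 141 CPM, a rise of 1.01 on the log2 scale (SE 0.17, adjusted p = 0.00185, edgeR). Cox8a rose, and Cox6a1, Cox6b1, Cox7a2 and Cox7b rose by 1.36, 1.18, 1.32 and 1.46 on the log2 scale, and Cox6c, which has no second form here, by 1.48. Cox5a was called (1.12, SE 0.29, adjusted p = 0.0129, edgeR) although its groups overlapped, at 67.3, 145 and 122 CPM against 46.9, 42.2, 45.2 and 71.2 CPM, and the call was lost without mutant 2, with library size as the scaling, at an adjusted p under 0.01 and without wild-type 1 and 2.

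The tissue-restricted forms were low. Cox4i2, known from lung, was at 0.227 to 2.02 CPM in mutant spleens and 0.620 to 1.02 CPM in wild type. Cox6a2, the heart and muscle form, was at 2.50, 0.916 and 0.586 CPM against 2.09, 2.04, 1.77 and 0.858 CPM. Neither was called, and both spans overlap a more abundant gene, Bcl2l1 and Itgad, so their reads may be shared. Cox7a1, another muscle form, stood at 1.11, 1.34 and 0.684 CPM against 0.212, 0.148, 0.243 and 0.198 CPM. It is counted among the 75 genes called higher, but it passed the filter only through its mutant values, so its call is no support, and its fitted log2 fold change ran from 0.76 to 2.59 over the alternatives. Cox7a1 made up 1.27 ± 0.43% of the Cox7a1 and Cox7a2 signal per length in mutant spleens and 0.62 ± 0.18% in wild type. Cox7b2 and Cox8c had 0 counts in all libraries, which allows up to 0.0279 CPM for the mutant group as a whole and 0.017 CPM for wild type. Cox8b had 44 counts in total and was not tested.

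Cox6b2, known as the testis form of Cox6b (chromosome 7, 4751792 to 4753094, minus strand), had the largest fitted increase of all members. It stood at 79.4, 18.05 and 20.4 CPM in mutant spleens and 12.2, 9.81, 3.10 and 4.25 CPM in wild type. Mutant 1 was far above the others (2.43, SE 0.67, adjusted p = 0.0164, edgeR), and without it the log2 fold change was 1.48 and the call was lost. Cox6b2 supplied 23.6% of the Cox6b1 and Cox6b2 signal per length in mutant 1, 4.97% and 4.69% in the other mutants and 1.98% to 6.97% in wild type, so outside mutant 1 the share overlapped. The 5 testis markers were at or near 0, with sums of 0.0619 to 0.228 CPM in mutant spleens and 0.0924 to 0.370 CPM in wild type, and Prm2 and Tnp1 at 0 counts. Mutant 1 was also the library with the most erythroid marker RNA of its group and with the highest muscle and heart marker sum, 53.7 CPM against 5.82 and 19.9 CPM in the other mutants and 4.63 to 6.46 CPM in wild type. The part of these cells in the Cox6b2 value was not tested.

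**Figure D3:**
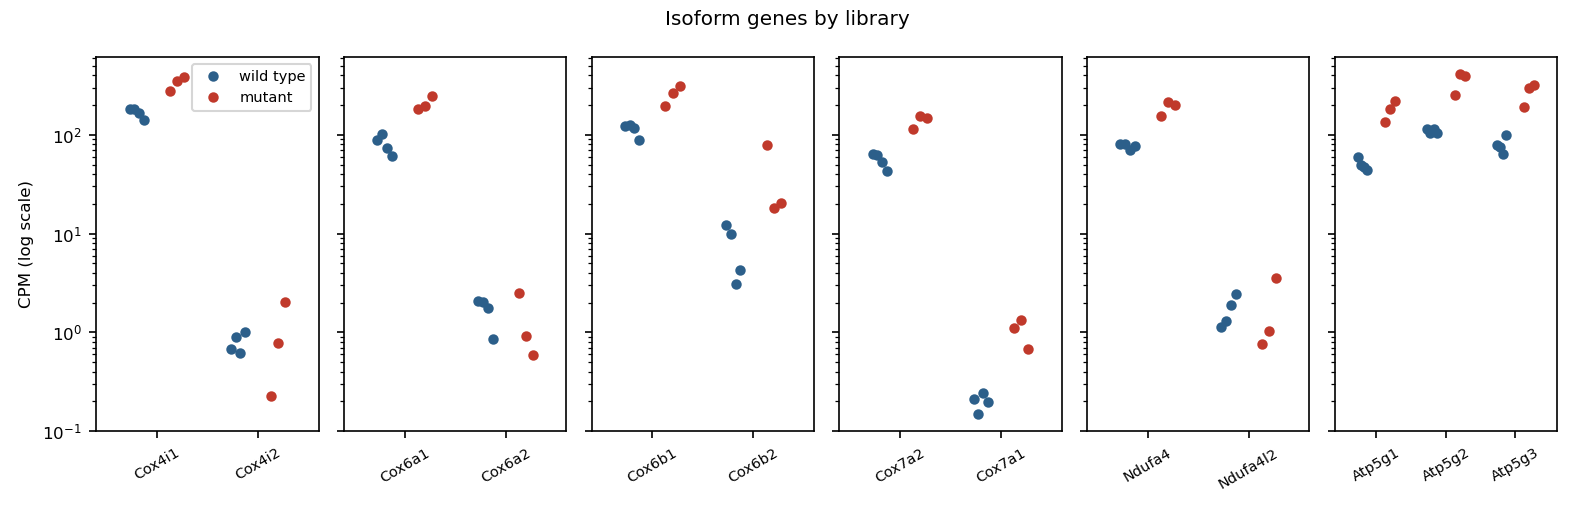
CPM (log scale) of the isoform genes of complex IV, Ndufa4 and the ATP synthase c subunit, 1 point per library. The widely expressed forms and all 3 Atp5g genes lie higher in every mutant library, while Cox4i2, Cox6a2 and Ndufa4l2 overlap between the groups.

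Cox7a2l, the supercomplex factor, was not called. It stood at 254, 254 and 309 CPM in mutant spleens and 265, 253, 300 and 201 CPM in wild type, overlapping throughout (0.10, SE 0.17, adjusted p = 0.659, edgeR; chromosome 17, 83501917 to 83514333, minus strand). Ndufa4 stood at 155, 217 and 199 CPM against 81.2, 81.2, 69.7 and 76.9 CPM and rose by 1.30 on the log2 scale (SE 0.15). Its relative Ndufa4l2, known as a hypoxia-induced form, was at 0.763 to 3.58 CPM against 1.13 to 2.43 CPM and was not called. The span of Ndufa4l2 overlaps by 35 bases that of Shmt2, a more abundant gene on the opposite strand, so some reads may be shared.

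In ATP synthase 15 of 17 genes rose, 1 fell and the median was 1.41. The summed level was 6073 ± 855 CPM in mutant spleens and 2261 ± 170 CPM in wild type. Atp5b, the catalytic beta subunit (chromosome 10, 128083307 to 128090388, plus strand), stood at 1473, 1479 and 1759 CPM against 579, 575, 481 and 463 CPM. The groups were far apart (1.58, SE 0.16, adjusted p = 0.000311, edgeR). Atp5a1, its alpha partner, stood at 1137, 1177 and 1637 CPM against 543, 530, 502 and 450 CPM, a rise of 1.38 on the log2 scale (SE 0.18, adjusted p = 0.000633, edgeR). All 5 genes of the catalytic head and central stalk rose, from 0.64 for Atp5e to 1.58 for Atp5b, and the Atp5e call was lost with library size as the scaling and without wild-type 1 and 2. All 4 peripheral stalk genes rose, by 1.39 to 1.59, and so did the 3 small membrane subunit genes, with a median of 1.41.

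The c ring, which turns as protons pass, is built from 1 mature protein encoded by 3 genes. All 3 rose. Atp5g1 (chromosome 11, 96072793 to 96075694, minus strand) stood at 135, 182 and 222 CPM against 59.9, 49.5, 47.0 and 43.8 CPM, the largest increase in ATP synthase (1.85, SE 0.20, adjusted p = 0.000366, edgeR). Atp5g3 and Atp5g2 rose by 1.76 and 1.69 on the log2 scale. Their shares overlapped between the groups, with Atp5g1 at 20.5 ± 1.79% of the 3 genes' signal per length in mutant spleens and 18.9 ± 2.12% in wild type, and Atp5g2 at 53.9 ± 2.45% and 55.9 ± 3.27%.

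Atp5sl was the exception among the called genes. It stood at 19.4, 26.1 and 32.7 CPM in mutant spleens and 70.1, 68.0, 83.7 and 63.8 CPM in wild type (chromosome 7, 25619414 to 25625550, plus strand). Every mutant value was below every wild-type value (-1.45, SE 0.21, adjusted p = 0.000934, edgeR), where 32.6% of tested genes lay below in this way. The similarly named Atp5s was at 9.90, 4.93 and 4.59 CPM against 5.80, 5.89, 6.20 and 7.90 CPM and was not called.

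Levels of different genes were compared per kilobase of transcript for the 78 members with a mean of at least 5 CPM. Their median rose from 67.1 CPM per kilobase in wild type to 166 in the mutant. The order also shifted. Uqcrh ranked 1 in wild type, at 346 ± 88.2 CPM per kilobase, and 5 in the mutant. Atp5b ranked 3 in wild type, at 274 ± 31.9, and 1 in the mutant, at 820 ± 85.4. Cox7a2l went from rank 6 to 21, Sdha from 30 to 55 and Ndufa3 from 14 to 31, while Ndufa12 went from 41 to 18. Neighbouring ranks can differ by less than their SD, as for Atp5b and Atp5g2 in the mutant, the latter at 797 ± 199.

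**Figure D4:**
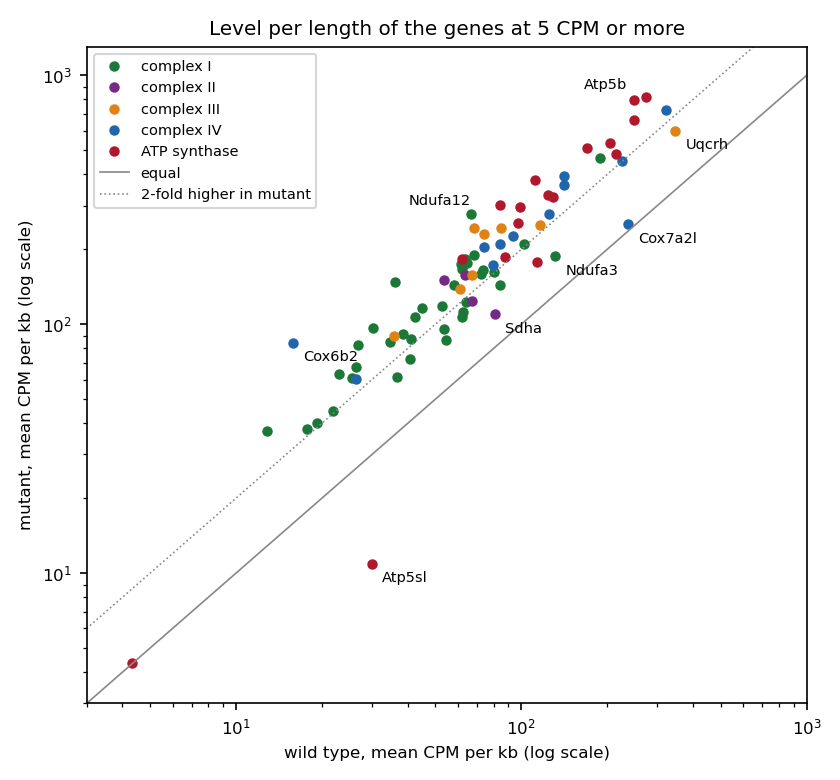
Mean CPM per kilobase in wild type (horizontal) and mutant (vertical), both on log scales, for the 78 members at 5 CPM or more, coloured by complex, with lines for equal levels and for a 2-fold increase. Most points lie near or above the 2-fold line, Cox7a2l lies near the line of equal levels, and Atp5sl lies below it.

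Near-identical copies elsewhere in the genome can take or give reads. Of the 59 tested members with no copy of at least 95% identity over 200 bases, 53 were called higher and 1 lower, with a median of 1.18. Of the 23 with such a copy, 22 were called higher, with a median of 1.41. Among the 16 tested members whose span overlaps another gene of the count table, 13 were called higher and 0 lower, with a median of 0.96. Among the 66 with no such overlap, 62 were called higher and 1 lower, with a median of 1.31. Whether overlap bears on the changes was not tested. Of the tested genes with NRF1 letters in their window, 17 of 17 were called higher (median 1.37). Of those with none of the 3 motifs, 27 of 30 were called higher (median 1.30). With GABP letters 16 of 16 were called higher (median 1.25), and with YY1 letters 10 of 11 were higher and 1, Atp5sl, was lower (median 1.25). Sdha, whose stretch above holds 3 NRF1 matches, had the smallest called increase. Whether the letters bear on the changes was not tested.

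Other genes of the same pathway were read from lists of assembly factors, carriers, regulators and citric acid cycle enzymes. The 3 subunit genes outside the name rule rose, with Cyc1, the cytochrome c1 of complex III, at 177, 221 and 255 CPM against 73.7, 71.6, 63.7 and 55.4 CPM (1.72, SE 0.17). Usmg5 rose by 1.69 and 2010107E04Rik by 0.63 on the log2 scale, the latter call being lost with library size as the scaling and without wild-type 1 and 2. In the citric acid cycle, 15 of 16 genes rose and 0 fell, with a median of 1.12. Idh3a, a subunit of isocitrate dehydrogenase, stood at 190, 176 and 242 CPM against 53.2, 47.7, 41.5 and 47.8 CPM (2.09, SE 0.16, adjusted p = 0.000155, edgeR).

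Assembly factors, which help build the complexes without staying in them, were read next. Of 13 complex I assembly factors, 9 rose and 0 fell, with a median of 0.69, and of 31 factors for the other complexes 21 rose and 0 fell, with a median of 0.76. Without wild-type 1 and 2, 4 and 8 of these were called higher, and with library size as the scaling 5 and 12, with 1 complex I factor then called lower. Of all tested genes, 18.9% were called higher without wild-type 1 and 2, and 20.8% with library size as the scaling. The difference from the subunit genes was not tested. Ndufaf2, a complex I chaperone, stood at 26.1, 35.9 and 32.04 CPM against 8.91, 9.52, 8.52 and 6.80 CPM (1.89, SE 0.19). Lyrm7, which acts on the Rieske protein, rose by 1.72, and Sco2, which delivers copper to complex IV, by 1.55.

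Among 21 genes for electron carriers, coenzyme Q synthesis and carriers of ATP, phosphate and protons, 15 rose and 1 fell. Cycs, cytochrome c, stood at 232, 399 and 339 CPM against 92.0, 97.6, 94.9 and 90.3 CPM (1.79, SE 0.19). The coenzyme Q synthesis genes Pdss1 and Coq7 rose by 2.33 and 2.15. Adck3, also of the coenzyme Q pathway, fell, from 40.0, 34.1, 42.5 and 33.4 CPM in wild type to 6.56, 7.75 and 4.53 CPM in the mutant (-2.58, SE 0.23, adjusted p = 0.000239, edgeR).

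Of 19 regulators of mitochondrial biogenesis, 10 rose and 2 fell, with a median of 0.51, and without wild-type 1 and 2 the counts were 5 and 1. With library size as the scaling, 6 rose. The shares of all tested genes called higher in these settings were 18.9% and 20.8%. Gabpa, the DNA-binding subunit of GABP, stood at 134, 134 and 141 CPM against 77.6, 83.1, 74.7 and 92.3 CPM (0.73, SE 0.12, adjusted p = 0.00176, edgeR). Its span overlaps that of Atp5j on the opposite strand by 452 bases, so some reads may be shared. Ppargc1b, a coactivator of mitochondrial genes, rose by 1.10. Ppargc1a, its better known relative, was low in both groups, at 2.16, 1.89, 2.50 and 1.85 CPM in wild type and 0.392, 0.0705 and 0.0326 CPM in the mutant. It is 1 of the 2 genes called lower, but it passed the filter only through wild type, and its fitted log2 fold change ran from -5.20 to -1.42 over the alternatives. Esrra, a nuclear receptor that works with these coactivators, stood at 19.2, 21.1 and 27.7 CPM against 33.8, 31.5, 37.5 and 34.0 CPM (-0.59, SE 0.17, adjusted p = 0.019, edgeR). Settings that lost the Esrra call included leaving out wild-type 3, leaving out wild-type 1 and 2, and an adjusted p under 0.01. The 77 mitochondrial ribosomal protein genes, which serve to make the mitochondrially encoded subunits, had a median of 1.29, and 76 of them were called higher. The 13 mitochondrially encoded subunit genes themselves were looked up by name, but none was found in the count table, so they were not analysed.

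**Figure D5:**
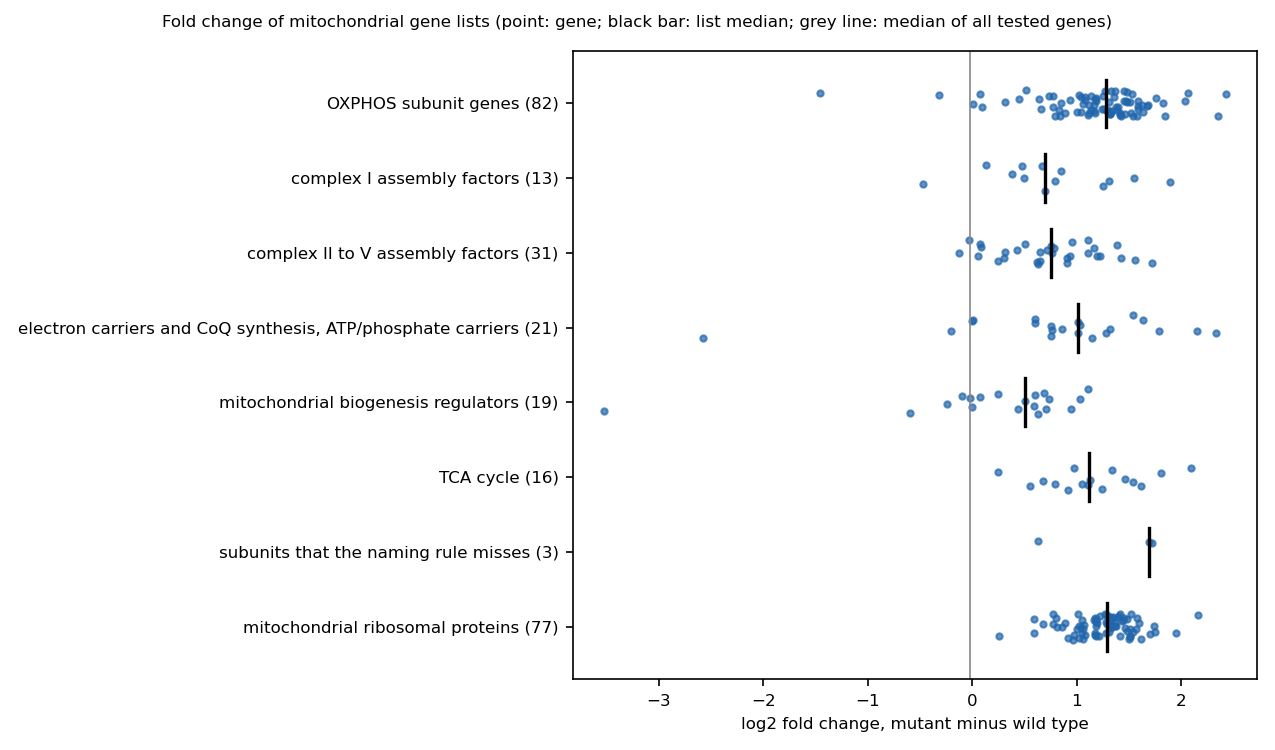
Log2 fold change (mutant minus wild type, horizontal axis) of the oxidative phosphorylation genes and 7 related lists, with the number tested in brackets, 1 point per gene, a black bar at each list's median and a grey line at the median of all tested genes. The list medians run from 0.51 for regulators to 1.69 for the 3 subunits outside the name rule.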

How the data were processed

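RNA-seq libraries of 3 mutant and 4 wild-type spleens were analysed. Per the submitters' processing notes, the tools were TopHat2 2.0.12, bcl2fastq 2.17.1.14, Subread 1.4.6 with featureCounts, and edgeR, with build mm10. Settings and strand use are not stated there. Raw gene counts, as deposited by the authors, were tested, and their deposited CPM values served only in alternatives. The main test was edgeR 4.0.16 (R 4.3.3), with TMM scaling, filterByExpr, glmQLFit and glmQLFTest, group as the only term, and Benjamini-Hochberg adjustment over 15188 genes. Each SE was taken as the log2 fold change over the root of its F statistic. CPM use TMM library sizes. Transcript lengths came from GENCODE, as the shortest coding transcript marked principal that lay within the gene's span. Where there was none, the shortest coding transcript within the span was used, or failing that a principal one reaching beyond it. Ndufa3, Ndufa12 and Cox6b1 were among the members without a principal transcript within the span. Floors of 3 counts cover counting error only. The fit was also run on simulated data with few changed genes, balanced in direction. In these spleens 57.4% of tested genes were called, so that run cannot vouch for the scaling. The genes, lists and tests were chosen with earlier results of these data known. Genes given full statistics were up to 3 largest changes in each direction per complex among called members at 5 CPM or more, isoform groups, complex II, and up to 3 genes of each related list with the smallest p plus members called against their list. Others were chosen after their values were seen. Alternatives used DESeq2 1.42.0 and limma 3.58.1, other scalings and filters, the replicate block and each library left out. The labels do not say whether replicate numbers pair the samples. A gene of the related lists picked by the rule for full statistics is not reported here.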

Additional observations from a re-analysis of the deposited data

Results flagged for a closer look

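Over 83 member genes and 5 complex sums examined in wild type, 4 genes had 1 spleen apart from the other 3, with a gap to the nearest value that took up most of the group's range, which is about as many as chance gives, since it gives 1 in about 20 groups of 4. For Ndufa9 the gap was 0.912 of the range, with wild-type 1 highest at 51.3 CPM. For Ndufc2 it was 0.867, with wild-type 4 highest at 35.6 CPM. For Ndufa13 it was 0.946, with wild-type 4 lowest at 51.1 CPM. For Cox5a it was 0.838, with wild-type 4 highest at 71.2 CPM.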

How the results depend on the processing

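Over all alternatives 69 to 76 members were called higher and 1 lower, and no call changed direction. With library size as the only scaling, the median log2 fold change of the members was 1.03 and that of all genes -0.26, 71 members were called higher, and 38.1% of all calls were increases, against 49.7% with TMM. Leaving out 1 library gave 73 to 75 members called higher, and medians from 1.20 to 1.47. Wild-type 1 and 2, which had the higher cell division and erythroid marker sums of their group, were also left out together. Without them 69 members were called higher, those lost being Sdha, Ndufa2, Atp5e, Ndufc1, Ndufb2 and Cox5a. Genes of the related lists called higher then went from 70 to 42. The share of all tested genes called higher went from 28.5% to 18.9%. In this setting Brca1 was called at 1.55 (adjusted p = 0.0129, edgeR). Brca1 ranged from 0.17 to 0.94 with 1 library left out. At an adjusted p under 0.01, over all genes 3038 rose and 2924 fell, against 4334 and 4390. With the replicate block, 72 members were called higher, Sdha, Ndufa7 and Ndufa2 being lost, as was Esrra among the regulators. Same-numbered samples correlated at 0.11, -0.22 and 0.13, and differently numbered ones at -0.26 to 0.25. With so few samples these values cannot show whether the numbers mark a match. As shares of raw counts without length, Cox7a1 was at 0.760% in the mutant and 0.371% in wild type, Ndufa4l2 at 0.908% and 2.16%, Atp5g1 at 22.5% in the mutant, Atp5g2 at 43.8% and 45.8%, and Atp5g3 at 33.7% and 33.2%. Depth limits the tissue-restricted forms under 5 CPM.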
